A study of Mus musculus with 96 samples.

Results

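Chromatin accessibility was followed at the regulatory elements of 5 genes that control the sterol regulatory element binding proteins (SREBPs): Srebf1, Srebf2, Insig1, Insig2 and Scap. All peaks of open chromatin whose nearest annotated transcription start belonged to one of these genes, at a distance of at most 100 kb, were taken. This gave 57 of 46832 hepatocyte peaks (24 near Insig1, 11 each near Srebf1 and Insig2, 7 near Scap and 4 near Srebf2) and 12 of 30170 macrophage peaks (4 near Srebf1, 3 each near Srebf2 and Insig1, 1 each near Insig2 and Scap). Of these, 10 hepatocyte and 2 macrophage peaks overlap another peak of the same set, so not all peaks counted are separate elements. The data are ATAC-seq, in which a transposase cuts accessible DNA, on nuclei isolated by affinity capture (INTACT) from livers of female mice, HEP-INTACT for hepatocytes and MAC-INTACT for macrophages. Mice fasted for 3, 8, 16 or 24 h, starting at ZT12, when the active phase begins, were compared with mice fed ad libitum and sampled at the same time, with 4 mice in each of the 16 groups. The 4 times correspond to ZT15, ZT20, the next ZT4 and the next ZT12. All groups of a cell type share the nuclear tag and differ in feeding and hour only, as far as the labels say. All macrophage feeding labels end in lys and no hepatocyte label does. What lys stands for, the promoter that drives the tag and the age of the mice are not given in the sources used here.

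SREBP-1c, a product of Srebf1, drives fatty acid synthesis in the fed liver under insulin and the oxysterol receptor LXR, and SREBP-2, the product of Srebf2, drives cholesterol synthesis. Both are made as membrane precursors in the endoplasmic reticulum, where SCAP, the sterol sensor, escorts them to the Golgi for cleavage unless INSIG1 or INSIG2 holds SCAP back. Insig1 is itself an SREBP target, whereas mouse liver makes an Insig2 transcript from a start of its own that insulin represses and fasting raises.

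Each value is the deposited normalised read count of a 200 bp peak in 1 mouse. Reads in peaks numbered 4334668 ± 821505 per hepatocyte library and 3492422 ± 693581 per macrophage library (SD, n = 32 mice each), with the lowest, 1729720, in fasted 16 h macrophage replicate 4. The hepatocyte table had promoter peaks for 5 of 6 hepatocyte marker genes and 0 of 9 macrophage marker genes. The macrophage table had them for 9 of 9 macrophage and 0 of 6 hepatocyte marker genes, and for 1 of 5 endothelial, 1 of 4 stellate, 1 of 3 neutrophil and 0 of 4 lymphocyte genes. The summed level of the 12 macrophage marker peaks ranged over 759 to 1007 in fasted and 770 to 1184 in fed mice, that of the 2 stellate peaks over 40.3 to 136 in fasted and 58.6 to 98.1 in fed mice, that of the endothelial peak over 11.6 to 56.9 in fasted and 18.3 to 49.5 in fed mice, and that of the neutrophil peak over 17.1 to 68.1 in fasted and 15.8 to 35.6 in fed mice. The part of other cell types in the macrophage results was not tested.

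In hepatocytes, fasting closed 18 to 20 of the 57 peaks near these genes at every time, and opened 3 to 7. A peak is called closed or opened where the fasted mice were lower or higher at an adjusted p under 0.05 (limma, adjusted over all 46827 hepatocyte or 30170 macrophage peaks tested). After 3 h, 19 of the 57 peaks had closed and 3 had opened, against 10.3% closed and 11.3% opened of all hepatocyte peaks. After 8 h, 19 had closed and 7 had opened, against 13.7% and 20.3% of all peaks. After 16 h, 18 had closed and 7 had opened, against 12.8% and 19.0% of all peaks. After 24 h, 20 had closed and 7 had opened, against 11.4% and 25.3% of all peaks. Most of the closed peaks lay near Srebf1 and Insig1. Of the 11 peaks near Srebf1, 6, 5, 6 and 8 were closed over the 4 times. Of the 24 near Insig1, 11, 10, 8 and 10 were closed. Near Srebf2 1, 0, 1 and 0 of 4 were closed. Near Insig2 0, 2, 1 and 1 of 11 were closed, and near Scap 1, 2, 2 and 1 of 7. The median log2 fold change of the 57 peaks was -0.27, -0.19, -0.14 and -0.18 at 3, 8, 16 and 24 h, against -0.01, 0.08, 0.10 and 0.16 over all peaks. In all, 10 of the 57 peaks were closed at all 4 times and 1 was opened at all 4, against 2.41% and 1.68% of all hepatocyte peaks. At 1 or more times 33 were closed and 15 opened, against 25.6% and 44.5% of all peaks, and 13 were called at no time, against 32.6%. The fasting effect differed between the 4 times at 20 of the 57 peaks, against 24.1% of all hepatocyte peaks. Fed mice alone differed between the 4 times at 20 of the 57 peaks, against 21.1% of all hepatocyte peaks. The fasted and fed groups did not overlap, in either direction, at 24, 29, 19 and 27 of the 57 peaks over the 4 times. Of all hepatocyte peaks tested, 25.8%, 30.9%, 22.4% and 36.5% had no overlap, so this was common in hepatocytes.

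The balance of opened and closed peaks depended on how libraries were scaled. At 24 h, 69.1% of all called hepatocyte peaks were opened with the deposited scaling, 41.2% with edgeR and 39.1% with DESeq2, and the median log2 fold change over all peaks was 0.16, 0.03 and 0.02. Near the 5 genes, the split at 24 h was 7 opened and 20 closed with the deposited scaling, 3 opened and 24 closed with edgeR and 3 opened and 25 closed with DESeq2. At 8 h, 59.7% of all called hepatocyte peaks were opened with the deposited scaling and 46.4% with median centring, and the split near the 5 genes was 7 opened and 19 closed against 5 opened and 25 closed. At 16 h, the share opened was 59.9% with the deposited scaling and 44.6% with edgeR, and the split was 7 opened and 18 closed against 6 opened and 23 closed. Fewer open nuclei and less access in each nucleus cannot be told apart in such bulk samples. Of 100 calls near the 5 genes in hepatocytes, 97 had the same sign within each of the sets of consecutive library numbers. The exceptions were all at 16 h, at the Insig1 peak at -39699, the Scap peak at +12179 and the Srebf1 peak at -18153. The sets are made of the same mice that gave the calls, so this count describes the calls and does not test them. At each time, sets 2 and 3 held 1 fasted and 1 fed hepatocyte mouse each.

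**Figure D1:**
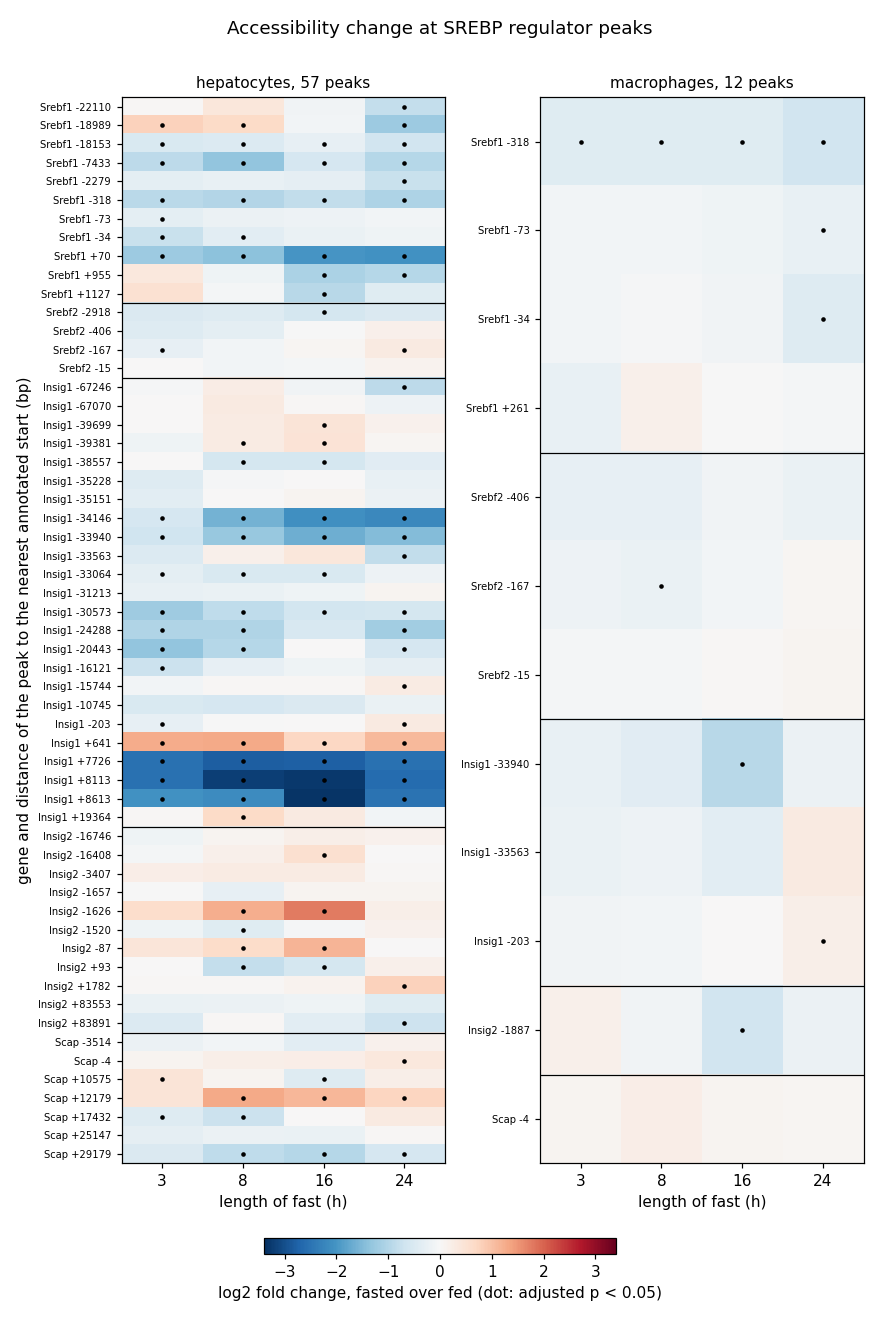
Log2 fold change of accessibility, fasted over fed, at each peak (rows, by gene and distance to the nearest annotated start in bp) after each length of fast (columns, in h), for 57 hepatocyte and 12 macrophage peaks. Blue is lower and red is higher in fasted mice, and a dot marks an adjusted p under 0.05. The 3 Insig1 peaks at +7726, +8113 and +8613 are dark blue at all 4 times, and the Insig1 peak at +641 is red at all 4.

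Srebf1 lies on the minus strand of chromosome 11 (60199084 to 60224186, mm10). The promoter annotation used here gives it 3 starts, the second 1954 bp and the third 12110 bp downstream of the first. The start called first, at 60222581, lies inside that span, so the annotated gene reaches further upstream. The gene is known for alternative first exons that give SREBP-1a and SREBP-1c, and the files do not say which start gives which. The windows run from 250 bases before to 50 bases after each start, from RefSeq on GRCm38.p6. They are shown because the log2 fold changes at the 3 starts differed in size, a difference that was not tested. Capitals mark the letters CCAAT, the box bound by the factor NF-Y, on either strand.
Srebf1, the first start, chr11:60222532-60222831, minus strand: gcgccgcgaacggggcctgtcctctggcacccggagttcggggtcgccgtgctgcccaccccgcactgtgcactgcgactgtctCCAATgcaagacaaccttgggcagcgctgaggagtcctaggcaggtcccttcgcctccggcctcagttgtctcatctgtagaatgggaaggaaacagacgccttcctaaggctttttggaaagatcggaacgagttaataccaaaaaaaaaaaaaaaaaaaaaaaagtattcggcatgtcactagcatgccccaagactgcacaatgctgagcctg
Srebf1, the second start, chr11:60220578-60220877, minus strand: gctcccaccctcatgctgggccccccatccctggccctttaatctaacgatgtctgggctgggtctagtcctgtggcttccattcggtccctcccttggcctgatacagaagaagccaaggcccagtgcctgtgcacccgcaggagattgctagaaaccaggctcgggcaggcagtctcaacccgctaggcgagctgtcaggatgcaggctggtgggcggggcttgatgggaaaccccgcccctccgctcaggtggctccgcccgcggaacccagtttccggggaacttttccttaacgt
Srebf1, the third start, chr11:60210422-60210721, minus strand: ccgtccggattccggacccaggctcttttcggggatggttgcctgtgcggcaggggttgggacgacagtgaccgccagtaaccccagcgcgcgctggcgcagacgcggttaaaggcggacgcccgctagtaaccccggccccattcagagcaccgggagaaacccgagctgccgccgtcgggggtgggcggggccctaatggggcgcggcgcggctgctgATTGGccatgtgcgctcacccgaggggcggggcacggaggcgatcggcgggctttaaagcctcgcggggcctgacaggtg
No E-box (CACGTG), sterol element core (TCACNCCAC), FOXO site (TGTTTAC), glucocorticoid receptor core (ACANNNTGT) or LXR repeat (AGGTCA, again in the same direction after 4 free bases) was found on either strand of these 3 windows. Over all 32851 promoter windows the shares with a match were 7.15%, 1.24%, 3.65%, 6.85% and 0.0152% for these 5 motifs, and 37.4% for CCAAT. No match says only that these letters are not in these windows. The LXR repeat was searched in its exact form alone, which 5 of all 32851 windows held. Its absence therefore cannot show that a window lacks an LXR site.

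All 11 hepatocyte peaks near Srebf1 were closed at 1 or more times, against 25.6% of all hepatocyte peaks. At all 4 times 4 of them were closed, against 2.41% of all peaks: +70 and -318 at the first start, and -7433 and -18153 further upstream. The strongest change was at the first start. The peak 70 bp downstream of it (60222411 to 60222611) held 14.7, 18.0, 20.7 and 20.5 normalised reads in mice fasted for 3 h, against 51.3, 35.4, 46.6 and 52.2 in fed mice. After 8 h it held 19.2, 16.9, 17.8 and 11 in fasted mice, against 48.7, 46.4, 48.1 and 37.5 in fed mice. After 16 h it held 10.4, 12.5, 8.01 and 9.60 in fasted mice, against 44.1, 48.8, 59.9 and 36.1 in fed mice. Every fasted mouse lay below every fed mouse at these 3 times, as it did at 24 h. At 24 h the values were 8.95, 15.2, 7.14 and 9.0 in fasted mice, against 43.4, 42.2, 56.5 and 48.1 in fed mice. The log2 fold change was -1.24 ± 0.20 at 3 h, -1.39 ± 0.20 at 8 h, -2.01 ± 0.20 at 16 h and -2.07 ± 0.20 at 24 h (SE), with adjusted p values of 2.67e-05, 1.56e-06, 2.13e-09 and 3.47e-09. Fold changes are on the scale of log2 of the value plus 2, which understates changes at low peaks. The effect differed between times (adjusted p = 0.0400), while the fed mice stayed at means of 46.4, 45.2, 47.2 and 47.5 over the 4 times.

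The neighbouring peak 318 bp upstream of the first start reaches 33 bases into the window printed above, and the +70 peak covers 80 bases of it. It averaged 65.2 ± 6.37 normalised reads in fasted and 124 ± 6.96 in fed mice at 3 h, and 43.6 ± 0.912 in fasted and 94.7 ± 18.9 in fed mice at 24 h (SD, n = 4 each). Its log2 fold change lay between -0.83 and -1.06 at the 4 times, with adjusted p values between 9.31e-07 and 2.09e-05 and no overlap of the groups at any time.

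The other starts moved less. At the second start, the peak at -34 (60220561 to 60220761) averaged 39.9 ± 3.90 normalised reads in fasted and 68.3 ± 2.82 in fed mice at 3 h (SD, n = 4 each), a log2 fold change of -0.75 with adjusted p = 6.47e-05. The change was -0.36 at 8 h (adjusted p = 0.0291) and -0.23 and -0.14 at 16 and 24 h, where it did not pass the test (adjusted p = 0.168 and 0.397). The call at 8 h was lost without fasted replicate 3 or fed replicate 1, 2 or 4 of that time, with adjusted p between 0.0608 and 0.0881. The fasting effect at this peak differed between times (adjusted p = 0.0476). At the third start, the peak at -73 (60210444 to 60210644) passed the test at 3 h alone. It had 151 ± 14.8 normalised reads in fasted and 190 ± 10.7 in fed mice and a log2 fold change of -0.33 (adjusted p = 0.00872, and 0.0586 without fasted replicate 1). At 8, 16 and 24 h its log2 fold change was -0.20, -0.18 and -0.08, and the effect was not shown to differ between times (F test, adjusted p = 0.442). Inside the transcript from the third start, the peaks at +955 and +1127 overlap each other, so they are not separate observations. They had log2 fold changes of 0.36 and 0.53 at 3 h, which did not pass the test, and of -1.07 and -0.94 at 16 h, which did. The differences between starts were not tested.

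**Figure D2:**
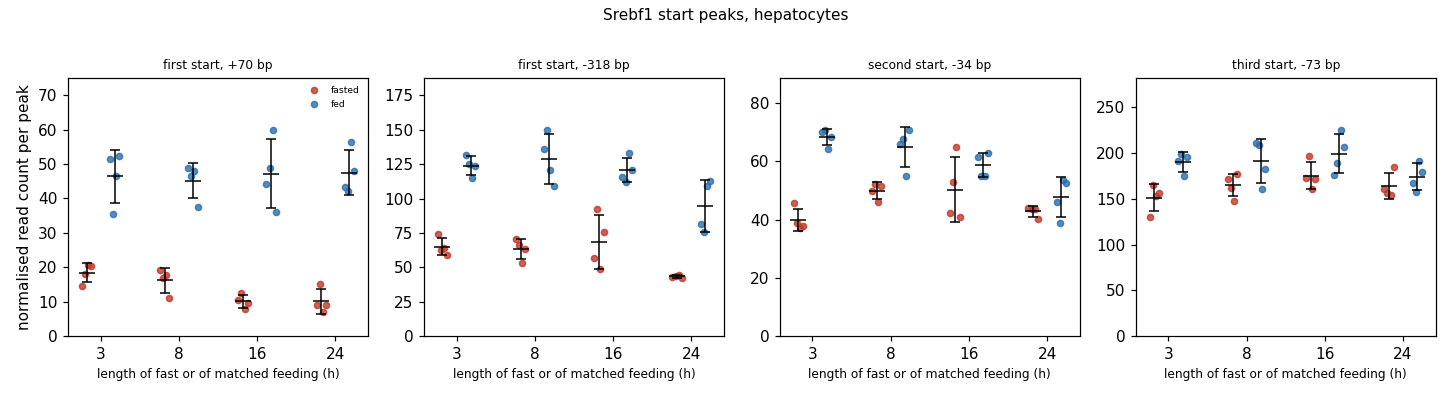
Normalised read counts at 4 Srebf1 peaks in hepatocytes, fasted mice (red, left) and fed mice (blue, right) after each time in h. Points are mice and bars are the mean ± SD of 4. At the first start the fasted points lie below the fed points at all 4 times, and at the third start the groups overlap from 8 h on.

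Upstream of Srebf1, 4 peaks lie inside the neighbouring gene Tom1l2, whose nearest annotated start is nevertheless that of Srebf1. The peak at -7433 (60229914 to 60230114, annotated to a 3' UTR exon) averaged 34.7 ± 7.01 normalised reads in fasted and 90.3 ± 15.5 in fed mice at 8 h (SD, n = 4 each), a log2 fold change of -1.34 (adjusted p = 3.60e-08). Its changes at 3, 16 and 24 h were -0.90, -0.58 and -0.98, all past the test. The peak at -18153 closed by 0.29 to 0.65 on the log2 scale over the 4 times. The peak at -18989 turned with time: it was opened at 3 h (44.2 ± 6.49 in fasted, 24.7 ± 4.02 in fed mice) and at 8 h, and closed at 24 h (12.7 ± 4.81 in fasted, 32 ± 8.16 in fed mice, SD, n = 4 each). Its log2 fold changes were 0.79, 0.64, -0.08 and -1.24, with adjusted p values of 0.0140, 0.0327 and 1.86e-04 at 3, 8 and 24 h, and the effect differed between times (adjusted p = 1.21e-04). The call at 3 h was lost without fasted replicate 1 (adjusted p = 0.0557). The call at 8 h was lost with median centring (adjusted p = 0.0707) and without any 1 of 6 mice, fasted replicates 1, 2 and 3 and fed replicates 2, 3 and 4 (adjusted p between 0.0527 and 0.0851).

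Srebf2, on chromosome 15 (82147269 to 82205379, plus strand), changed little. Its promoter window is shown because it holds letters of the sterol element known from the human gene: capitals mark TCACCCC and CCAAT (here read on the other strand as ATTGG). The 7 letters were chosen after the window had been read, and 4.97% of all promoter windows hold them. Among the 10 windows of the 5 genes 2 hold them, the other being that of the third Insig2 start, where they read on the other strand.
Srebf2, chr15:82147019-82147318, plus strand: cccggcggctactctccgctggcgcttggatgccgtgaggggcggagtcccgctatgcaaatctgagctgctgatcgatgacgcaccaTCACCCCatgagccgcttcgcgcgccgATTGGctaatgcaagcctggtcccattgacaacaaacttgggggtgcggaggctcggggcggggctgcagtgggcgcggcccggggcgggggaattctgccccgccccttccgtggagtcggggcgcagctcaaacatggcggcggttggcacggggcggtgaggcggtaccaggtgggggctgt
Of the 4 hepatocyte peaks, 2 were never called, against 32.6% of all peaks. The peak at -167, which covers 184 bases of this window, held 195, 156, 132 and 148 normalised reads in mice fasted for 3 h, against 181, 201, 176 and 197 in fed mice. At 24 h it held 192, 213, 213 and 203 in fasted mice, against 168, 153, 171 and 174 in fed mice. The groups overlapped at 3 h and did not at 24 h. The log2 fold change was -0.27 ± 0.09 at 3 h (adjusted p = 0.0385) and 0.30 ± 0.09 at 24 h (adjusted p = 0.0134), and -0.08 and 0.07 in between, and the effect differed between times (adjusted p = 0.0117). Neither call was firm. At 3 h it was lost without a trend in the prior variance (adjusted p = 0.0722) and without any 1 of fasted replicates 2, 3 and 4 and fed replicates 1, 2 and 4 (adjusted p between 0.0514 and 0.193). At 24 h it was lost without fed replicate 2 (adjusted p = 0.0527), with median centring (0.23, adjusted p = 0.0641), and at log2 fold changes of 0.03 with quantile normalisation, 0.17 with edgeR and 0.16 with DESeq2.

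The peak at -15, which overlaps the one at -167, averaged 157 ± 13.7 normalised reads in fasted and 144 ± 15.3 in fed mice at 24 h, and its log2 fold changes lay between -0.09 and 0.13. The intergenic peak at -2918 averaged 20 ± 7.16 in fasted and 30.6 ± 4.69 in fed mice at 16 h (SD, n = 4 each), a log2 fold change of -0.61 (adjusted p = 0.0199). That call was lost with quantile normalisation, in a fit of the mice of that time alone (adjusted p = 0.121), and without fasted replicate 2 or 4 or fed replicate 1 (adjusted p between 0.0604 and 0.0930). At 3, 8 and 24 h this peak stood at -0.49, -0.44 and -0.49 with adjusted p values of 0.0803, 0.0937 and 0.0584.

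Insig1, on chromosome 5 (28071412 to 28078662, plus strand), had the most peaks and both the strongest closing and the only opening at all 4 times. Of its 24 hepatocyte peaks, 14 were closed at 1 or more times, 6 of them at all 4, and 6 were opened at 1 or more times, with 1 peak in both counts and 5 never called. Over all hepatocyte peaks these shares were 25.6% closed at 1 or more times, 2.41% at all 4, 44.5% opened and 32.6% never called. The promoter window is shown because its own peak did not follow the peaks that closed. Capitals mark an E-box, CACGTG, bound by basic helix-loop-helix factors, and a CCAAT box read on the other strand.
Insig1, chr5:28071162-28071461, plus strand: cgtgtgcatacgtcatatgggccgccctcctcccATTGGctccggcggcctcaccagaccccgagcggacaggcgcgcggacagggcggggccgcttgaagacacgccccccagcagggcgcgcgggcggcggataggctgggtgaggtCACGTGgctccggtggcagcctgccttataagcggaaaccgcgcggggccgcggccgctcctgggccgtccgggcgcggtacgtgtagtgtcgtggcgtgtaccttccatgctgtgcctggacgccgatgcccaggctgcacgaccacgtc
The E-box spans bases -101 to -96 from the start. Of the 10 promoter windows of the 5 genes, 3 hold an E-box, this one and both overlapping Scap windows. The promoter peak at -203, which covers 148 bases of the window, is among the most open in the table, with a mean over 32 mice of 326 normalised reads, at the 99.8th percentile of all hepatocyte peaks.

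Beyond the 3' end of Insig1, 3 peaks closed at all 4 times in fasted hepatocytes. They lie at +7726, +8113 and +8613 from the start, which puts their centres 476, 863 and 1363 bp past the annotated end. The peak at +8113 (28079425 to 28079625) held 8.97, 7.0, 8.73 and 7.90 normalised reads in mice fasted for 3 h, against 80.2, 33.9, 63.1 and 61.7 in fed mice. After 16 h it held 0.864, 3.12, 1.60 and 4.36 in fasted mice, against 35.7, 41.8, 39.3 and 43.6 in fed mice. The groups were far apart and did not overlap at these times, nor at 8 and 24 h, where fasted mice averaged 3.12 ± 0.856 and 2.89 ± 1.14 and fed mice 46.7 ± 15.5 and 28.9 ± 10.2 (SD, n = 4 each). The log2 fold change was -2.55, -3.21, -3.29 and -2.62, each ± 0.29 (SE), over the 4 times, with adjusted p values between 2.28e-10 and 1.02e-07. The peaks at +7726 and +8613 fell with it, by 2.54 to 2.81 and by 2.05 to 3.33 on the log2 scale. Over 32 mice the 3 peaks varied together (Pearson r = 0.96, 0.94 and 0.90, across mice that share feeding state, hour and library depth). Unnormalised, the +8113 peak held 1 to 14 reads per fasted mouse, median 5, and 24 to 125 reads per fed mouse, median 49. The size of the change therefore depended on the offset: at 16 h it was -2.21 with an offset of 8 and -4.08 with edgeR on the reads.

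A second group of closed peaks lies about 34 kb upstream. The peak at -34146 (28037166 to 28037366) held 92.1, 100, 106 and 71.9 normalised reads in mice fasted for 3 h, against 173, 95.1, 139 and 148 in fed mice, and the groups overlapped. After 8 h it held 35.6, 65.0, 35.6 and 48.3 in fasted mice, against 151, 148, 134 and 130 in fed mice. After 24 h it held 20.6, 19.0, 22.1 and 29.5 in fasted mice, against 105, 142, 102 and 94.5 in fed mice. From 8 h on, all fasted mice lay below all fed mice. The log2 fold change was -0.56, -1.61, -2.09 and -2.19, each ± 0.19 (SE), with adjusted p values of 0.0273, 2.83e-08, 2.17e-10 and 1.59e-10, and it differed between times (adjusted p = 8.55e-05). The call at 3 h was lost without any 1 of 5 mice, fasted replicates 1 and 4 and fed replicates 1, 3 and 4, with adjusted p between 0.0554 and 0.123. The adjacent peak at -33940 closed by 0.69, 1.28, 1.67 and 1.48 on the log2 scale (adjusted p between 7.44e-09 and 0.00448). Not all peaks nearby did so. Those at -35228 and -35151, which overlap each other, were never called, and that at -33064 was closed at 3, 8 and 16 h. The peak at -33563 had log2 fold changes of -0.47, 0.18, 0.39 and -0.83 and was called closed at 24 h only (adjusted p = 0.00875).

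The time course was not shared by all Insig1 peaks that closed. Those at -30573 and -20443 changed most at 3 h, by -1.21 and -1.33 on the log2 scale. The peak at -30573 was closed at all 4 times, and its effect was not shown to differ between times (F test, adjusted p = 0.230). At -20443 the fed mice themselves changed with the hour, with means of 59.8, 41.5, 13.5 and 26.6 normalised reads at ZT15, ZT20, ZT4 and ZT12 (adjusted p = 1.15e-08), while fasted mice had means of 22.6, 20.5, 13.4 and 17.7. At 16 h the groups had nearly the same mean (log2 fold change 0.01, adjusted p = 0.986), and the effect differed between times (adjusted p = 0.00493). The call at 24 h (-0.58, adjusted p = 0.0232) was lost with quantile normalisation (-0.43, adjusted p = 0.0841) and without fasted replicate 1 or 4 or fed replicate 1 or 4 (adjusted p up to 0.147). Fed mice differed between times at 12 of the 24 Insig1 peaks, against 21.1% of all hepatocyte peaks.

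In intron 1, 641 bp past the start, the opposite was seen. The peak held 112, 117, 149 and 124 normalised reads in mice fasted for 3 h, against 41.7, 71.5, 44.6 and 49.3 in fed mice, and 133, 170, 134 and 165 in mice fasted for 24 h, against 70.3, 50.9, 74.1 and 84.0 in fed mice. All fasted mice lay above all fed mice at each of the 4 times. Over the 4 times the log2 fold change was 1.27, 1.30, 0.70 and 1.10, each ± 0.17 (SE), with adjusted p values of 1.79e-06, 3.26e-07, 0.00192 and 1.54e-05. Over 32 mice this peak ran against the +8113 peak (Pearson r = -0.88, with shared feeding state, hour and library depth). The promoter peak at -203 averaged 268 ± 19.9 in fasted and 324 ± 6.97 in fed mice at 3 h, and 345 ± 18.5 in fasted and 279 ± 33.6 in fed mice at 24 h (SD, n = 4 each). Its log2 fold change was -0.28 at 3 h (adjusted p = 0.0178), -0.02 at 8 h, 0.01 at 16 h and 0.31 at 24 h (adjusted p = 0.00554), and the effect differed between times (adjusted p = 0.00516). At 3 h the call was lost without a trend in the prior variance (adjusted p = 0.0552) and without fasted replicate 2 or 4 (adjusted p up to 0.0623). At 24 h it was lost with 3 other scalings, at 0.05 with quantile normalisation and 0.17 with both edgeR and DESeq2.

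**Figure D3:**
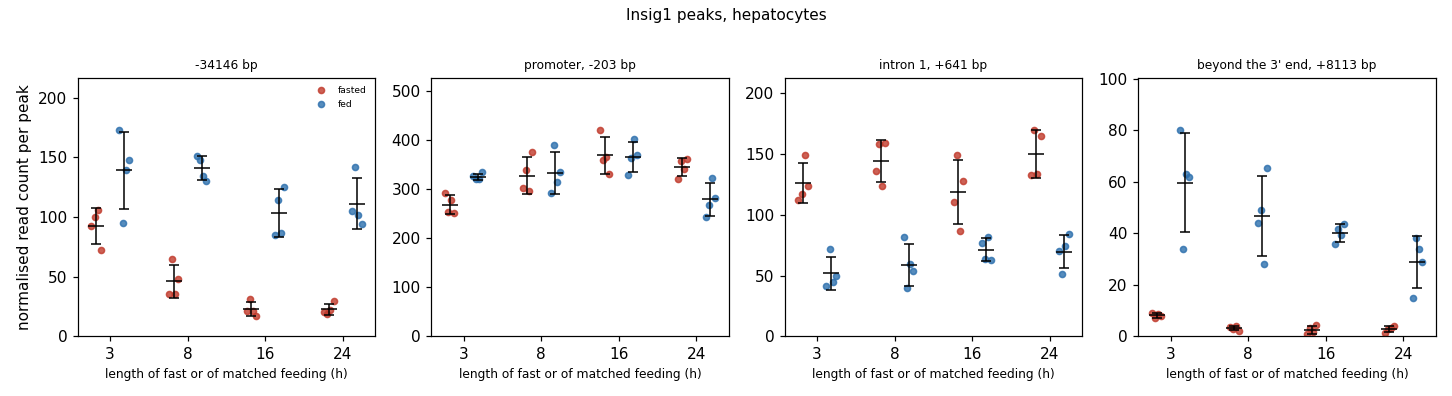
Normalised read counts at 4 Insig1 peaks in hepatocytes, fasted mice (red, left) and fed mice (blue, right) after each time in h. Points are mice and bars are the mean ± SD of 4. Fasted mice are lower at -34146 and +8113 and higher at +641, while the means of the promoter peak at -203 lie between 268 and 368 in fasted and 279 and 365 in fed mice.

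Insig2 lies on the minus strand of chromosome 1 (121304353 to 121332662). The promoter annotation used here gives it 3 starts, the middle one 4565 bp and the third 4911 bp downstream of the upstream one. The windows of the upstream and middle starts are shown because the peaks over them moved in opposite directions. Capitals mark CCAAT boxes, 3 in the upstream window (1 of them on the other strand), and the middle window has no match to any motif searched.
Insig2 upstream start, chr1:121332540-121332839, minus strand: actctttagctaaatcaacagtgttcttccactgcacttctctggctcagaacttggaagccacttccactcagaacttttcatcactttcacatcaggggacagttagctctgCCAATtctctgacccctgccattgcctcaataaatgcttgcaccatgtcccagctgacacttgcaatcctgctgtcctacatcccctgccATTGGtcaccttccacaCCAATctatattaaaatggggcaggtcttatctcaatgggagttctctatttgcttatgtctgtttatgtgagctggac
Insig2 middle start, chr1:121327975-121328274, minus strand: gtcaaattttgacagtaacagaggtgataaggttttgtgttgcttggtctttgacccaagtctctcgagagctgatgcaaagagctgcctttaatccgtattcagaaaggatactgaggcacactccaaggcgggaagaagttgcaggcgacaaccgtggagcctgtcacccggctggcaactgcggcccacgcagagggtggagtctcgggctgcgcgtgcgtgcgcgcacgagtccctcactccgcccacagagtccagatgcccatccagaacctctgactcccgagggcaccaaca
The upstream window has 46.0% G and C and the middle one 57.0%. The peak at -87 covers 201 bases of the upstream window, and the peak at +93 covers 57 bases of the middle window and 98 bases of the window of the third start.

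Near the upstream start, 2 peaks opened in fasted hepatocytes at 8 and 16 h. The peak at -1626 (121334115 to 121334315) held 112, 100, 81.6 and 108 normalised reads in mice fasted for 8 h, against 32.1, 33.4, 66.2 and 40.5 in fed mice. After 16 h it held 60.4, 70.6, 134 and 67.2 in fasted mice, against 20.3, 13.2, 24.6 and 32.9 in fed mice. Fasted mice lay above fed mice at both times without overlap, with fasted replicate 3 far above the others at 16 h. On the log2 scale the change was 1.23 ± 0.22 at 8 h and 1.77 ± 0.22 at 16 h (SE), with adjusted p values of 4.81e-05 and 2.14e-07, and 1.52 at 16 h without that replicate. At 3 and 24 h it was 0.59 (adjusted p = 0.0545) and 0.21 (adjusted p = 0.471), and the effect differed between times (adjusted p = 0.00207). The promoter peak at -87 had 216 ± 41.3 normalised reads in fasted and 139 ± 15.3 in fed mice at 8 h, and 187 ± 48.0 in fasted and 82.4 ± 16.4 in fed mice at 16 h (SD, n = 4 each). Its log2 fold change was 0.42, 0.62, 1.16 and 0.02 over the 4 times, past the test at 8 h (adjusted p = 0.00595) and 16 h (adjusted p = 4.23e-06), and differed between times (adjusted p = 0.00736). Fed mice changed with the hour at both peaks (adjusted p = 0.00286 at -1626 and 0.0117 at -87), and were lowest at 16 h, at ZT4.

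The peak over the middle start closed at 8 and 16 h. At +93 (121327831 to 121328031) it held 101, 129, 102 and 139 normalised reads in mice fasted for 8 h, against 199, 209, 208 and 204 in fed mice. After 16 h it held 166, 172, 118 and 124 in fasted mice, against 221, 223, 249 and 180 in fed mice. All fasted mice were below all fed mice at both times. This was a log2 fold change of -0.80 ± 0.11 at 8 h and -0.59 ± 0.11 at 16 h (SE), with adjusted p values of 6.47e-07 and 8.80e-05, and 0.01 and 0.18 at 3 and 24 h, where it did not pass the test. The effect differed between times (adjusted p = 4.44e-05), and over 32 mice the peak ran against the one at -1626 (Pearson r = -0.69, with shared feeding state, hour and library depth). Of the other 8 Insig2 peaks, 4 were never called, 2 were opened at 1 time (-16408 at 16 h and +1782 at 24 h) and 2 were closed at 1 time (-1520 at 8 h and +83891 at 24 h). Over all 11 Insig2 peaks, 4 were opened and 3 closed at 1 or more times, and 4 were never called. The shares of all hepatocyte peaks were 44.5% opened, 25.6% closed and 32.6% never called.

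**Figure D4:**
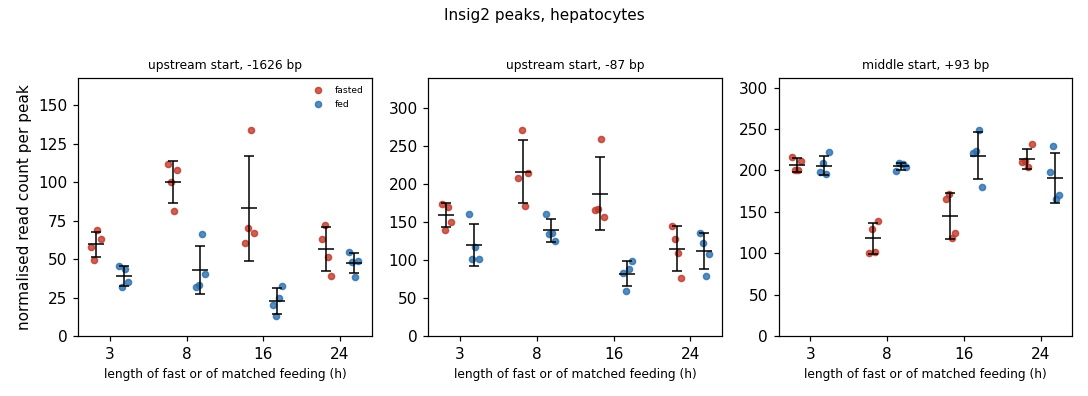
Normalised read counts at 3 Insig2 peaks in hepatocytes, fasted mice (red, left) and fed mice (blue, right) after each time in h. Points are mice and bars are the mean ± SD of 4. At 8 and 16 h fasted mice are higher at both peaks of the upstream start and lower at the middle start.

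Scap, on chromosome 9 (110333288 to 110384949, plus strand), had changes in its introns. Of 7 hepatocyte peaks, 3 were opened and 3 closed at 1 or more times, with 1 in both counts, against 44.5% opened and 25.6% closed of all peaks. The intron 3 peak at +29179 (110362435 to 110362635) averaged 61.0 ± 19.2 normalised reads in fasted and 120 ± 23.4 in fed mice at 16 h (SD, n = 4 each). Its log2 fold change was -0.50 at 3 h (adjusted p = 0.0501), -0.87 at 8 h (3.82e-04), -0.98 at 16 h (1.11e-04) and -0.56 at 24 h (0.0181). At 24 h the call was lost without fasted replicate 1 or fed replicate 3 (adjusted p = 0.0620 and 0.0792). The intron 1 peak at +17432 (110350688 to 110350888) held 38.4, 36.7, 44.2 and 38.6 in mice fasted for 8 h, against 70.7, 59.4, 69.7 and 69.6 in fed mice. These groups did not overlap. Its log2 fold change was -0.44 at 3 h (adjusted p = 0.0204), -0.74 at 8 h (7.16e-05), 0.00 at 16 h and 0.31 at 24 h (0.0775), and differed between times (adjusted p = 8.29e-04). At 3 h the call was lost without fasted replicate 1 or fed replicate 1 or 2 (adjusted p between 0.0541 and 0.133). In the same intron, the peak at +12179 was opened at 8, 16 and 24 h (log2 fold changes 1.28, 1.12 and 0.73), the last call being lost without fasted replicate 1 or 3 or fed replicate 2 or 3 (adjusted p between 0.0551 and 0.0583). The promoter peak at -4 averaged 104 ± 10.6 in fasted and 81.3 ± 6.57 in fed mice at 24 h, a log2 fold change of 0.35 (adjusted p = 0.0146). It was 0.17 with quantile normalisation and 0.22 with edgeR and DESeq2, none past the test, and the call was also lost without fasted replicate 2 or fed replicate 1 (adjusted p = 0.0577 and 0.0613).

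In macrophages, fasting closed 1 to 3 of the 12 peaks at each time and opened 1 at 24 h alone. After 3 h, 1 peak was closed and 0 were opened, against 0.139% closed and 1.68% opened of all macrophage peaks. After 8 h, 2 were closed and 0 opened, against 4.96% and 1.63%. After 16 h, 3 were closed and 0 opened, against 17.5% and 3.79%. After 24 h, 3 were closed and 1 was opened, against 8.28% and 3.00%. At all 4 times 1 peak was closed and 0 were opened, against 0.0331% and 0.146% of all macrophage peaks. At 1 or more times 6 were closed and 1 was opened, against 23.1% and 7.23%, and 5 were called at no time, against 69.9%. The fasting effect differed between times at 1 of the 12 peaks, against 3.49% of all macrophage peaks, and fed mice differed between times at 2, against 1.63%. The groups did not overlap at 3, 2, 2 and 2 of the 12 peaks over the 4 times, against 7.41%, 14.4%, 16.7% and 14.5% of all. The median log2 fold change of all macrophage peaks was 0.00, -0.07, -0.10 and -0.06 over the 4 times, and other scalings moved it by up to 0.14. At 16 h 17.8% of all called macrophage peaks were opened with the deposited scaling and 51.6% with edgeR, and the split of the 12 peaks was 0 opened and 3 closed with both. At 8 h 24.8% were opened with the deposited scaling and 66.5% with median centring, with splits of 0 opened and 2 closed against 1 opened and 0 closed. At 24 h 26.6% were opened with the deposited scaling and 44.0% with edgeR, with splits of 1 opened and 3 closed against 1 opened and 2 closed. Changes in macrophages are therefore given also relative to that median where they passed the test.

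The Srebf1 peak at -318, which has the same coordinates in both tables, was the only one called at all 4 times. It held 96.6, 112, 91.1 and 83.4 normalised reads in macrophages of mice fasted for 3 h, against 119, 124, 127 and 135 in fed mice. After 24 h it held 81.8, 64.7, 83.7 and 66.6 in fasted mice, against 106, 110, 139 and 111 in fed mice. Fasted mice were below fed mice without overlap at 3, 16 and 24 h, and 1 fed mouse lay among the fasted ones at 8 h. The log2 fold change was -0.40, -0.40, -0.41 and -0.64, each ± 0.11 (SE), with adjusted p values of 0.0357, 0.0191, 0.00528 and 6.09e-05, or -0.40, -0.33, -0.31 and -0.58 relative to the median of all peaks. The call at 24 h held under all alternatives and without each mouse. At 3 h the call was lost without any 1 of 7 of the 8 mice, all but fasted replicate 2 (adjusted p between 0.0602 and 0.239), and with median centring (0.0565), no trend (0.0691) and DESeq2 (0.0606). At 8 h it was lost without any 1 of fasted or fed replicates 2, 3 and 4 (adjusted p between 0.0553 and 0.0723), and with median centring (-0.28, adjusted p = 0.146), quantile normalisation (0.0554), edgeR (0.0642) and DESeq2 (0.0919). At 16 h it was lost with median centring (-0.27, adjusted p = 0.103) and DESeq2 (0.0637). In hepatocytes the same peak closed by 0.83 to 1.06, and the difference between cell types was not tested because their tables were normalised separately. The hepatocyte peak at +70 had no counterpart among the macrophage peaks used here.

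The second start of Srebf1 closed at 24 h in macrophages, where the peak at -34 held 55.5, 60.6, 54.2 and 67.5 normalised reads in fasted mice, against 69.0, 86.0, 94.3 and 76.8 in fed mice, without overlap. Its log2 fold change was -0.44 ± 0.12 (SE, adjusted p = 0.00852), or -0.38 relative to the median, and was lost with median centring (-0.34, adjusted p = 0.0586) and quantile normalisation (-0.35, adjusted p = 0.0567). At the third start the peak at -73 averaged 167 ± 18.7 in fasted and 198 ± 14.3 in fed mice at 24 h (-0.25, adjusted p = 0.0460), or -0.19 relative to the median. That call was lost under 5 alternatives, the largest shift being to -0.15 with median centring (adjusted p = 0.312), and without any 1 of fasted replicates 2, 3 and 4 and fed replicates 1, 2 and 4 (adjusted p between 0.0765 and 0.157).

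Far upstream of Insig1, the macrophage peak at -33940, also shared with hepatocytes, held 28.6, 48.8, 36.8 and 35.6 normalised reads in mice fasted for 16 h, against 54.9, 87.2, 73.5 and 75.8 in fed mice. The groups did not overlap. On the log2 scale the change was -0.93 ± 0.15 at 16 h (SE, adjusted p = 2.92e-05), or -0.83 relative to the median, and held under all alternatives and without each mouse. At 3, 8 and 24 h it was -0.25, -0.39 and -0.19 and did not pass the test. Its neighbour at -33563 was not called, with log2 fold changes between -0.37 and 0.30. The Insig1 promoter peak at -203 averaged 431 ± 24.5 in fasted and 379 ± 32.7 in fed mice at 24 h (SD, n = 4 each), a log2 fold change of 0.19 (adjusted p = 0.0286), or 0.25 relative to the median, and its effect differed between times (adjusted p = 0.0434). That call was lost with quantile normalisation (adjusted p = 0.0547), no trend (adjusted p = 0.111) and without any 1 of fasted replicates 1, 3 and 4 and fed replicates 1 and 2 (adjusted p between 0.0541 and 0.193). The 3 hepatocyte Insig1 peaks beyond the 3' end and the one at +641 had no counterpart among the macrophage peaks used here.

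The single Insig2 macrophage peak, at -1887, averaged 25.5 ± 8.67 normalised reads in fasted and 40.0 ± 7.61 in fed mice at 16 h (SD, n = 4 each), with a log2 fold change of -0.65 (adjusted p = 0.00861), or -0.55 relative to the median. It was lost with quantile normalisation (-0.37, adjusted p = 0.129), DESeq2 (adjusted p = 0.0672), the mice of that time alone (adjusted p = 0.0525) and without fasted replicate 1 (-0.47, adjusted p = 0.0806). The Srebf2 peak at -167 averaged 251 ± 13.5 in fasted and 295 ± 11.4 in fed mice at 8 h (-0.23, adjusted p = 0.0204), or -0.16 relative to the median. It was lost with median centring (-0.11, adjusted p = 0.387), no trend (0.0521), edgeR (0.182) and DESeq2 (0.231), and without fasted replicate 3 or 4 or fed replicate 3 or 4 (adjusted p between 0.0512 and 0.105). The Srebf1 peak at +261 was not called, with log2 fold changes between -0.24 and 0.18. The Srebf2 peaks at -15 and -406 and the Scap promoter peak at -4 were not called, with log2 fold changes between -0.07 and 0.09, between -0.28 and -0.11, and between 0.07 and 0.22.

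**Figure D5:**
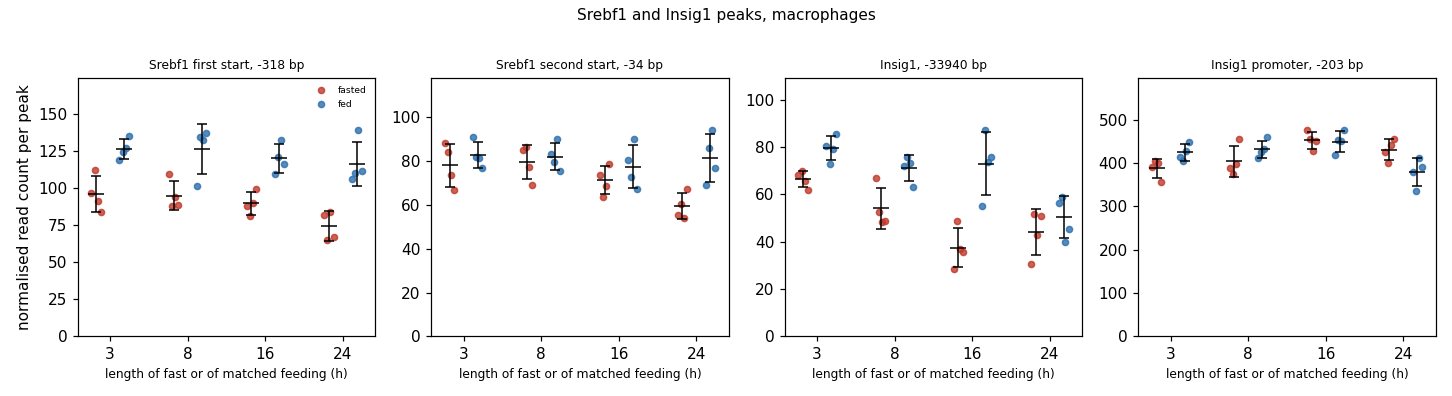
Normalised read counts at 4 macrophage peaks, fasted mice (red, left) and fed mice (blue, right) after each time in h. Points are mice and bars are the mean ± SD of 4. Fasted mice are lower at the first Srebf1 start, and at the Insig1 peak at -33940 the gap is widest at 16 h.

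Other genes of the pathway were read by lists, each as the number of its peaks called in hepatocytes. The genes that escort, cleave or turn over SREBPs (15 genes with 62 peaks) had 3, 13, 16 and 16 peaks opened and 5, 7, 7 and 5 closed at 3, 8, 16 and 24 h. That is 4.84%, 21.0%, 25.8% and 25.8% opened, against 11.3%, 20.3%, 19.0% and 25.3% of all hepatocyte peaks, and 8.06%, 11.3%, 11.3% and 8.06% closed, against 10.3%, 13.7%, 12.8% and 11.4% of all. Their median log2 fold change was 0.06, 0.16, 0.13 and 0.18, against -0.01, 0.08, 0.10 and 0.16 over all peaks. Of this list, a peak at +13991 of Sar1b, a GTPase of the vesicles that leave the endoplasmic reticulum, averaged 44.4 ± 23.8 normalised reads in fasted and 13.4 ± 2.36 in fed mice at 16 h (log2 fold change 1.46, adjusted p = 1.67e-06). A peak at +54474 of Paqr3, a Golgi anchor of the SCAP complex, averaged 13.6 ± 4.05 in fasted and 35.8 ± 2.83 in fed mice at 8 h (-1.31, adjusted p = 2.71e-06). The other peaks named here lay at promoters and opened at 24 h. The peak at -336 of Rnf139, a ubiquitin ligase of the endoplasmic reticulum, averaged 121 ± 7.51 in fasted and 85.1 ± 4.39 in fed mice (0.50, adjusted p = 9.30e-05), and the peak at -68 of 2410131K14Rik averaged 267 ± 4.20 in fasted and 202 ± 14.6 in fed mice (0.40, adjusted p = 9.31e-05).

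Sterol synthesis genes, known SREBP-2 targets (13 genes with 60 peaks), had 7, 8, 8 and 15 peaks opened and 17, 18, 18 and 12 closed at the 4 times. The shares were 11.7%, 13.3%, 13.3% and 25.0% opened and 28.3%, 30.0%, 30.0% and 20.0% closed, beside the shares of all peaks just given, and the median log2 fold change was -0.22, -0.19, -0.05 and 0.03. Single peaks moved in both directions. Near Sqle, squalene epoxidase, the peak at +2135 fell to 14.4 ± 3.33 normalised reads in fasted hepatocytes at 8 h, against 79.7 ± 8.94 in fed ones (-2.34, adjusted p = 7.36e-10). Near Sc5d, sterol C5-desaturase, the peak at -8261 stood at 5.93 ± 2.11 in fasted and 33.6 ± 4.06 in fed mice at 24 h (-2.20, adjusted p = 7.30e-08). Near Hmgcs1, HMG-CoA synthase, the peak at +22622 rose to 40.8 ± 12.1 in fasted mice at 8 h, against 4.96 ± 2.41 in fed mice (2.66, adjusted p = 1.30e-06). The peak at +222 of Cyp51, lanosterol demethylase, stood at 122 ± 14.1 in fasted and 178 ± 2.43 in fed mice at 16 h (-0.54, adjusted p = 3.49e-05).

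Fatty acid synthesis genes, known SREBP-1c targets (12 genes with 86 peaks), had 10, 16, 14 and 14 peaks opened and 23, 18, 25 and 27 closed at the 4 times. That is 11.6%, 18.6%, 16.3% and 16.3% opened, against 11.3%, 20.3%, 19.0% and 25.3% of all hepatocyte peaks, and 26.7%, 20.9%, 29.1% and 31.4% closed, against 10.3%, 13.7%, 12.8% and 11.4% of all. Their median log2 fold change was -0.21, -0.01, -0.05 and -0.05. The Scd1 peak at -178, at the promoter of stearoyl-CoA desaturase, stood at 16.7 ± 2.78 normalised reads in fasted and 111 ± 22.2 in fed mice at 3 h (-2.58, adjusted p = 7.53e-10). The Acly peak at -539, at the promoter of ATP citrate lyase, stood at 10.2 ± 1.75 in fasted and 35.2 ± 6.07 in fed mice at 16 h (-1.61, adjusted p = 8.05e-08). The Fads1 peak at +1448, in a fatty acid desaturase gene, stood at 21.8 ± 4.05 in fasted and 85.4 ± 6.97 in fed mice at 8 h (-1.89, adjusted p = 6.85e-10). The Thrsp peak at +2252, near a gene for a lipogenic nuclear protein, stood at 4.41 ± 2.82 in fasted and 26.6 ± 3.88 in fed mice at 24 h (-2.24, adjusted p = 2.44e-07).

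The genes through which insulin and LXR act on Srebf1 (13 genes with 120 peaks) had 37, 30, 24 and 53 peaks opened and 5, 10, 11 and 6 closed at the 4 times. That is 30.8%, 25.0%, 20.0% and 44.2% opened, against 11.3%, 20.3%, 19.0% and 25.3% of all hepatocyte peaks, and 4.17%, 8.33%, 9.17% and 5.0% closed, against 10.3%, 13.7%, 12.8% and 11.4% of all. Their median log2 fold change was 0.12, 0.19, 0.06 and 0.32. The largest change among the peaks named was near Lpin1, a phosphatidate phosphatase, where the peak at -9443 stood at 166 ± 20.6 in fasted and 9.85 ± 1.72 in fed mice at 8 h (3.83, adjusted p = 6.85e-12). Near Gsk3b, a kinase held inactive by insulin, the peak at -30894 stood at 123 ± 14.8 in fasted and 20.1 ± 2.61 in fed mice at 8 h (2.50, adjusted p = 8.56e-11). Near Irs2, an insulin receptor substrate, the peak at -77025 stood at 118 ± 17.2 in fasted and 36.8 ± 8.34 in fed mice at 8 h (1.64, adjusted p = 2.32e-08). Near Akt1, a kinase of the insulin pathway, the peak at +3112 stood at 26.8 ± 11.4 in fasted and 115 ± 27.5 in fed mice at 16 h (-2.09, adjusted p = 7.54e-09). In macrophages the 4 lists had 42, 18, 12 and 61 peaks, in the order given. At 3 h 0, 0, 0 and 0 of them were opened and 0, 0, 1 and 0 closed, and at 8 h 0, 0, 0 and 1 were opened and 3, 0, 1 and 2 closed. At 16 h 3, 0, 0 and 2 were opened and 12, 7, 3 and 17 closed, and at 24 h 1, 0, 0 and 0 were opened and 3, 0, 4 and 3 closed. The shares closed at 16 h were 28.6%, 38.9%, 25.0% and 27.9%, against 17.5% of all macrophage peaks. At 24 h they were 7.14%, 0%, 33.3% and 4.92%, against 8.28% of all, and at 3 and 8 h the shares of all macrophage peaks closed were 0.139% and 4.96%. The shares of all macrophage peaks opened were 1.68%, 1.63%, 3.79% and 3.00% at 3, 8, 16 and 24 h, so opening was rare among all of them.

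Within hepatocytes, the strongest peaks of Srebf1 and Insig1 varied together: over 32 mice the +70 peak of Srebf1 had a Pearson r of 0.92 with the +8113 peak and 0.87 with the -34146 peak of Insig1. The points share feeding state, hour and library depth, so r is given with no test. By the same measure, the peaks of other genes most like the Srebf1 +70 peak included 1 near Shcbp1 (-59694 bp, r = 0.953). Another lay near Sept7 (76626 bp, r = 0.948). Distances are to the nearest annotated start, which names the gene, and a link of the peak to that gene was not tested. The peaks of other genes most like the Insig1 -34146 peak were near Adamts17 (-37764 bp, r = 0.949), Mettl21e (20451 bp, r = 0.946) and Plpp3 (66018 bp, r = 0.940). For the Insig2 -1626 peak they were near Igsf11 (7342 bp), Iqgap2 (46817 bp) and Wdr93 (15228 bp), with r between 0.913 and 0.916. For the Srebf2 -167 peak they were near Selenok (-28 bp), Phykpl (-76 bp) and Brip1 (-33 bp), with r between 0.816 and 0.831. For the Scap +17432 peak they were near Ifi30 (2420 bp), Apom (-126 bp) and Skint6 (23004 bp), with r between 0.854 and 0.882.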

How the data were processed

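ATAC-seq of hepatocyte and macrophage nuclei was read from 1 deposited table per cell type. The authors deposited a signal value per 200 bp peak and mouse, named normalised counts, and per the file headers also log2 fold changes and adjusted p-values of their own, which were not used. Per the submitters' processing notes, BWA 0.7.5a-r405, SAMtools, HOMER, DESeq2 and mm10 were used, with no role given. All signal values lay within 0.01 of a whole read once divided by 1 step per library, so they are reads over 1 factor per library, and how that factor was set is not given in the sources used here. Macrophage samples were run as technical duplicates per the labels' protocols, and the table holds 1 column per mouse, which was the unit of replication. No replicate numbers are given, so mice were numbered within a group by name only. P-values measure the spread between these mice.

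Log2 of the value plus 2 was fitted with limma 3.58.1 in R 4.3.3, 1 mean for each of 8 groups in a cell type, and a prior variance that follows the level. Only peaks averaging 10 or more were tested, which kept all peaks near the 5 genes. P-values were adjusted by Benjamini-Hochberg over all tested peaks of a comparison, with a threshold of 0.05, and moderated F tests asked whether the effect, or the fed mice, differed between times. The fit was tested on simulated data. Alternatives were other offsets and filters, 2 other scalings, no trend of the prior variance with level, each time alone, a block on sets of consecutive library numbers, edgeR 4.0.16 and DESeq2 1.42.0 on recovered reads, peaks within 50 kb, and each mouse left out.

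The genes, lists and rules were chosen with earlier results of these data known. In each cell type the text gives in full, for each gene, the peak nearest the start within 1 kb and the 2 other peaks of smallest p. A further 8 hepatocyte peaks were chosen after their values were seen. For the likeness of patterns, up to 3 peaks per gene are named, and 1 peak is not reported here. In each pathway list the peak of smallest p of each of 4 genes is named. Motifs were searched on both strands of RefSeq promoter windows (GRCm38.p6), and not in the peaks, for which no genome was used here.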

Additional observations from a re-analysis of the deposited data

Results flagged for a closer look

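At 12 of 34 peaks described in full, the fasting effect differed between the 4 times by a moderated F test adjusted over all peaks, against 24.1% of all hepatocyte and 3.49% of all macrophage peaks. The 34 peaks were chosen as nearest the start, by the smallest p or after their values were seen, so their share cannot be read against these. In hepatocytes the adjusted p was 8.55e-05, 0.00493 and 0.00516 at the Insig1 peaks at -34146, -20443 and -203, 4.44e-05, 0.00736 and 0.00207 at the Insig2 peaks at +93, -87 and -1626, and 8.29e-04 at the Scap peak at +17432. It was 0.0476, 0.0400 and 1.21e-04 at the Srebf1 peaks at -34, +70 and -18989, and 0.0117 at the Srebf2 peak at -167. In macrophages it was 0.0434 at the Insig1 peak at -203.

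Single mice stood apart from the other 3 of their group in 11 of 272 groups, where chance alone gives about 1 in 20. Each lay farther from its nearest neighbour, as a share of the group's range, than Dixon's 95% critical value. Fasted replicate 3 at 16 h was high at the Insig2 peaks at -87, with 259 against 157 to 167 normalised reads, and -1626, with 134 against 60.4 to 70.6. Without this mouse the log2 fold changes at 16 h were 0.99 and 1.52. Fasted replicate 1 at 3 h was high at the Srebf2 peak at -2918, with 60.3 against 27.5 to 29.5, and fasted replicate 4 at 24 h was low at the Srebf1 peak at -34, with 40.1 against 43.5 to 44.0. Among fed hepatocyte mice at 8 h, replicate 2 was low at the Scap peak at +17432, with 59.4 against 69.6 to 70.7, and high at the Srebf1 peak at -7433, with 113 against 80.8 to 85.7, and replicate 3 was low at the Srebf2 peak at -167, with 177 against 201 in the others. In macrophages, fasted replicate 4 at 8 h was low at the Srebf1 peak at -73, with 160 against 181 to 184. Fed replicate 2 at 8 h was low at the Insig2 peak at -1887, with 27.7 against 47.5 to 50.6. At the Srebf1 peak at -318, fed replicate 1 at 8 h was low, with 101 against 132 to 137, and fed replicate 3 at 24 h was high, with 139 against 106 to 111. These mice are kept in all values given, and their part in the results was tested only by leaving each out.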

How the results depend on the processing

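In hepatocytes the count of called peaks near the 5 genes stayed within 1.5 times the main count of 22, 26, 25 and 27 at 3, 8, 16 and 24 h under every alternative, and without each mouse ranged over 18 to 24, 23 to 27, 22 to 28 and 23 to 26. In macrophages, where the counts were 1, 2, 3 and 4, they ranged without each mouse over 0 to 1, 0 to 3, 3 to 3 and 2 to 4. With median centring they were 0, 1 and 2 at 3, 8 and 24 h, with no trend 0, 1 and 2, with quantile normalisation 1 and 2 at 8 and 24 h, with edgeR 1 at 8 h, and with DESeq2 0, 0 and 1 at 3, 8 and 16 h. The cause was not tested. Of 71 calls at peaks described in full, none reversed. DESeq2 and quantile normalisation each ended 9, median centring 8, edgeR and no trend 6 each, the mice of a time alone 3, and leaving out 1 mouse ended 20. Both offsets, no filter and the block on library numbers ended 0. On recovered reads, edgeR called 10864, 15256, 13124 and 12211 of all hepatocyte peaks over the 4 times, against 10136, 15937, 14896 and 17182 in limma. No paired analysis was possible because the labels give mice no shared numbers. Low peaks, with few reads in fasted mice, limit the size of the Insig1 changes.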
